A study of Drosophila melanogaster with 23 samples.

Results

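Stripe 5 and the posterior giant band are neighbouring rings of nuclei in the posterior trunk of the Drosophila melanogaster blastoderm, and the accessible regions of their chromatin were compared. The comparison took 4 of the 22 ATAC-seq peak lists, chosen by their labels: the 2 lists of nuclei tagged in domain D6 and the 2 of nuclei tagged in domain D7. ATAC-seq uses the Tn5 transposase to cut and tag DNA that is not packed away, so a peak marks a stretch of open chromatin. The study tagged nuclei in 7 domains along the head-to-tail axis of stage-5 embryos, pulled them down with an anti-FLAG antibody, and added 8 whole-embryo lists made without the pull-down and 1 genomic DNA sample, which has no list of its own.

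D6 nuclei carried the construct eve_stripe5_DSCP_UNC84-3xFLAG, in which the stripe 5 enhancer of even-skipped drives a FLAG-tagged nuclear envelope protein, in strains D6 line A and D6 line B. D7 nuclei carried gt_posterior_Hs43_UNC84_3xFLAG, driven by the enhancer of the posterior giant domain, in strains D7 line A and D7 line B. The constructs thus differ in the basal promoter (DSCP against Hs43) as well as in the enhancer. The lists used beside them came from D4 (D_central_Hs43_UNC84-3xFLAG) and D5 (Kr_central_Hs43_UNC84-3xFLAG), called central here, from D1 (hb_anterior_Hs34_UNC84-3xFLAG), D2 (eve_stripe2_DSCP_UNC84-3xFLAG) and D3 (eve_stripe1_DSCP_UNC84-3xFLAG), called anterior here, and from whole embryos of the D1, D4, D5 and D7 strains, 2 lists for each domain or strain. Both D3 lists came from D3 line A. Every strain had a wild-type background, and embryos were frozen 190 min after the start of a 20-min egg collection. D7 strains had whole-embryo lists of their own and D6 strains had none in the data used here, so a difference between domain and strain cannot be told apart on the D6 side. A pull-down can carry over untagged nuclei, and the labels give no purity.

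In the blastoderm, maternal gradients and gap genes divide the trunk into bands, and pair-rule genes such as even-skipped then form stripes at the borders of gap domains. giant encodes a gap-class repressor made in an anterior and a posterior domain. Stripe 5 of even-skipped forms between the central Krüppel domain and the posterior giant domain, and its enhancer is known to be repressed by Krüppel towards the head and by Giant towards the tail. The 2 tags thus mark nuclei on either side of a border at which Giant acts. Stripes at this stage are a few nuclei wide.

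The lists were of similar length but differed in covered length and in how surely their peaks were called. The D6 lists held 16830 and 17898 peaks on the 6 sequences compared (the X, both arms of chromosomes 2 and 3, and chromosome 4), and the D7 lists held 18529 and 17970. They covered 10.3 and 11.3 Mb in D6, against 12.6 and 12.0 Mb in D7. Peaks had a median width of 434 and 443 bp in D6 and of 455 and 461 bp in D7. The authors' median −log10 q, their measure of how surely a peak stands above genomic DNA, was 22.4 and 20.8 in D6 and 39.4 and 24.3 in D7, and read depth is not recorded in the files. D7 replicate 1 stood apart in name style too: it lists no peak split into lettered sub-peaks, whereas such peaks made up 29.7% and 30.8% of the D6 lists and 32.1% of D7 replicate 2. D6 replicate 1 and D7 replicate 2 share one name style and are therefore also compared as a pair of their own. Whether the style marks a batch is not stated in the sources used here.

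Most accessible regions were shared by the bands. Peaks of the 4 lists that touched by at least 1 bp were merged into 20343 regions, and 12776 of these were found in all 4 lists. Within D6, 13403 of the 17285 regions found in either list were found in both (77.5%), and within D7, 15152 of 19089 (79.4%). The base pairs shared by 2 lists, as a percentage of those covered by either, came to 75.9% between the D6 lists and 79.0% between the D7 lists. Between the domains they were 72.8%, 75.0%, 76.0% and 78.6%, with a mean of 75.6% ± 2.38 (SD, n = 4 pairs). Each list enters 2 of these pairs, so the pairs are not independent and the SD is a description. The overlap of the D6 lists with each other thus lay within the range of their overlaps with D7. The highest overlap between the domains, 78.6%, lay just below the 79.0% within D7.

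At 153 regions a peak was found in both D6 lists and in neither D7 list, which is 0.752% of the merged regions, and these are called D6-not-D7 regions. At 760 regions, 3.74%, a peak was found in both D7 lists and in neither D6 list, and these are called D7-not-D6 regions. With 2 lists a side, the smallest two-sided exact permutation p for a single region is 0.333, so no region can be called by presence, and these counts are a description. Between replicates, 3882 regions were found in only 1 of the D6 lists and 3937 in only 1 of the D7 lists. These counts set 1 list against 1, whereas the 153 and 760 need all 4 lists to agree, so they cannot be compared in size. The pair of one name style, given below and merged from its 2 lists alone, sets 1 list against 1 between the domains. Of the regions seen in a single list of the 4, 464 were found in D6 replicate 1 alone, 637 in D6 replicate 2 alone, 1515 in D7 replicate 1 alone and 783 in D7 replicate 2 alone. When each list was limited to its 16830 widest peaks, the counts were 222 regions (1.17%) for D6 and 578 (3.04%) for D7. The excess on the D7 side was thus smaller at equal length, and it moves with the larger covered length and higher −log10 q of the D7 lists, whose part in it was not tested. In the pair of one name style, 1253 regions (6.62%) were found in the D6 list alone and 3364 (17.8%) in the D7 list alone, and at equal length 1583 (8.73%) and 2588 (14.3%).

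Regions that separated the bands were narrow and of low rank. D6-not-D7 regions had a median width of 305 bp and D7-not-D6 regions one of 321.5 bp, while regions shared by all 4 lists had one of 680 bp. Ranked by the authors' fold over genomic DNA within each list, they lay at a median percentile of 25.3 for D6-not-D7 and 21.2 for D7-not-D6 regions. The median fold was 1.89 and 2.02 in the 2 D6 lists for the D6 set, and 1.97 and 1.88 in the 2 D7 lists for the D7 set. When all 4 lists were cut to equal length, 127 of the 153 D6 regions (83.0%) and 471 of the 760 D7 regions (62.0%) still had their peaks in both lists that held them.

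The D6-not-D7 set with the highest within-list ranks is given by position on dm3, the build of the lists. Its first member, X 20553438–20554040, had a fold of 2.64 and 3.68 in the 2 D6 lists and no peak in either D7 list. It was found in 2 other tagged lists, D4 replicate 2 and D5 replicate 2, and in 1 of 8 whole-embryo lists. The second by rank, 2L 1308640–1308952, had a fold of 3.06 and 3.02 in D6 and was found in 7 of the 10 other tagged lists. The next, 2R 16999940–17000542, had a fold of 2.48 and 3.88 in D6. It was found in 0 of 4 central lists, in 4 of 6 anterior lists and in 1 whole-embryo list, so it was present in the stripe 5 and anterior lists and in none of those from the central bands or the posterior giant band. The region 3R 4448890–4449110 had a fold of 2.38 and 2.78 in D6, and outside D6 it was found only in D4 replicate 1. By contrast, 4 of the 10 named D6 regions (3L 20563078–20563351, X 5406876–5407230, X 7118246–7118501 and X 1507411–1507713) were found in all 10 other tagged lists and all 8 whole-embryo lists, so what set them apart was their absence from both D7 lists. The remaining named regions, X 14112681–14112957 and 3L 17141016–17141313, were found in 7 and 9 of the 10 other tagged lists.

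Among D7-not-D6 regions the highest rank belonged to 3R 14344177–14344596, with a fold of 4.32 and 4.22 in the 2 D7 lists, 2 of 4 central lists, 2 of 6 anterior lists and 5 of 8 whole-embryo lists. The second by rank, X 20522859–20524338, spanned 1480 bp with a fold of 4.82 and 3.66. It was found in all 4 central lists, in all 8 whole-embryo lists and in 0 of 6 anterior lists, and D6 shared its absence with the anterior domains. It lay 29099 bp from the first-ranked D6 region, X 20553438–20554040, which had the reverse pattern between the bands. Another region, 2R 11132951–11133978, spanned 1028 bp with a fold of 3.61 and 3.14 in D7, and was found in 1 of the 10 other tagged lists, a D4 list, and in all 8 whole-embryo lists. Similarly, 2L 14551185–14551744 had a fold of 3.42 and 3.02 in D7, and was found in 1 D4 list and 7 whole-embryo lists beside them. On chromosome 4, 107985–108246 had a fold of 3.12 and 3.51 in D7 and was found in 3 of the 10 other tagged lists and all 8 whole-embryo lists. The other named regions were 2L 21049328–21049618, 2L 7540356–7540752, 3R 12724062–12724453, 2L 4224180–4224416 and X 20811701–20811953, found in 3, 4, 3, 9 and 2 of the 10 other tagged lists.

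Few separated regions belonged to one band alone. Of the 153 D6-not-D7 regions, 43 (28.1%) were found in all 10 lists of D1 to D5 and 0 were found in none of them. Of the 760 D7-not-D6 regions, 71 (9.34%) were found in all 10 and 24 (3.16%) in none. In whole embryos, 63 D6 regions (41.2%) and 299 D7 regions (39.3%) were found in all 8 lists, and 5 D6 regions and 20 D7 regions in none. Both D7 whole-embryo lists, which come from the D7 strains, held 86 of the 153 D6 regions (56.2%) and 498 of the 760 D7 regions (65.5%). Regions merged over all 14 tagged lists gave the same counts: 0 were found in D6 alone and 24 in D7 alone, against 8 (D2) to 127 (D1) in the other 5 domains. The D6 count was 6 and the D7 count 54 when all 14 lists were cut to equal length, against 12 to 52 in the other domains. In the other direction, 59 regions were found in all 12 other tagged lists and in neither D6 list, and 42 in all others and in neither D7 list, against 1 to 31 missing alone from the other 5 domains. At equal length these counts were 21 for D6 and 27 for D7, within the 3 to 30 of the other domains. Without D6 replicate 1 or D6 replicate 2, the D6 counts were 68 and 37 found alone and 196 and 306 missing alone. Without D7 replicate 1 or D7 replicate 2, the D7 counts were 90 and 258 found alone and 107 and 108 missing alone.

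Because D1 to D5 played no part in choosing these regions, they allowed a test over libraries of where the D6 and D7 sets lie along the axis. D6-not-D7 regions were found in 120 to 133 of 153 cases in the 4 central lists, with a mean of 127.5 ± 6.14 (SD), and in 83 to 127 in the 6 anterior lists, with a mean of 105 ± 17.9 (SD). D7-not-D6 regions were found in 506 to 649 of 760 cases in the central lists, with a mean of 548 ± 67.6 (SD), and in 277 to 577 in the anterior lists, with a mean of 406 ± 117 (SD). Both means were higher in central than in anterior lists, and the ranges overlapped. Central lists were also the longer ones, with a median of 20367 peaks against 19134 in the anterior lists. The share of D6 regions among all separated regions found in a list was therefore compared, but it does not remove list length. It was lowest in the 2 longest lists, D4 replicate 1 (21284 peaks, 17.01%) and D1 replicate 1 (22169 peaks, 17.3%). It was highest in the 2 shortest, D2 replicate 2 (17863 peaks, 23.1%) and D3 replicate 2 (17412 peaks, 23.3%). The remaining lists lay between and did not follow length strictly, with 20.7% in D5 replicate 1 (21183 peaks). This share averaged 19.0% ± 1.56 (SD, n = 4) in central and 21.0% ± 2.32 (SD, n = 6) in anterior lists, a difference of −2.04 percentage points (two-sided exact permutation test over 210 divisions of the 10 libraries, p = 0.143, smallest possible p = 0.00952). The difference did not pass the threshold. At equal list length it was −3.41 points and did not pass either (exact permutation p = 0.162). The part of covered length in the difference was not tested. Without D1 replicate 1 the difference was −2.78 points with p = 0.0476 in the same exact test. With the 5 domains as units it had an exact permutation p of 0.4, and so few units could not pass the threshold. Within name styles it was −1.71 points among the 5 lists of the style of D6 replicate 1 and D7 replicate 2 (exact permutation p = 0.3, smallest possible 0.1) and 1.51 points among the 3 lists of the style of D7 replicate 1 (exact permutation p = 1, smallest possible 0.333), of which 1 was anterior, so neither style could pass the threshold. The 2 remaining lists were both anterior. Name style also moved with the counts themselves, whose D7-not-D6 regions numbered 506 to 649 in the D1 to D5 lists of the style of D7 replicate 1, 382 to 524 in those of the style of D7 replicate 2 and 277 to 283 in those of the style of D6 replicate 2, and its part in them was not tested. In whole embryos the share ranged from 13.9% to 18.5%.

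**Figure D1:**
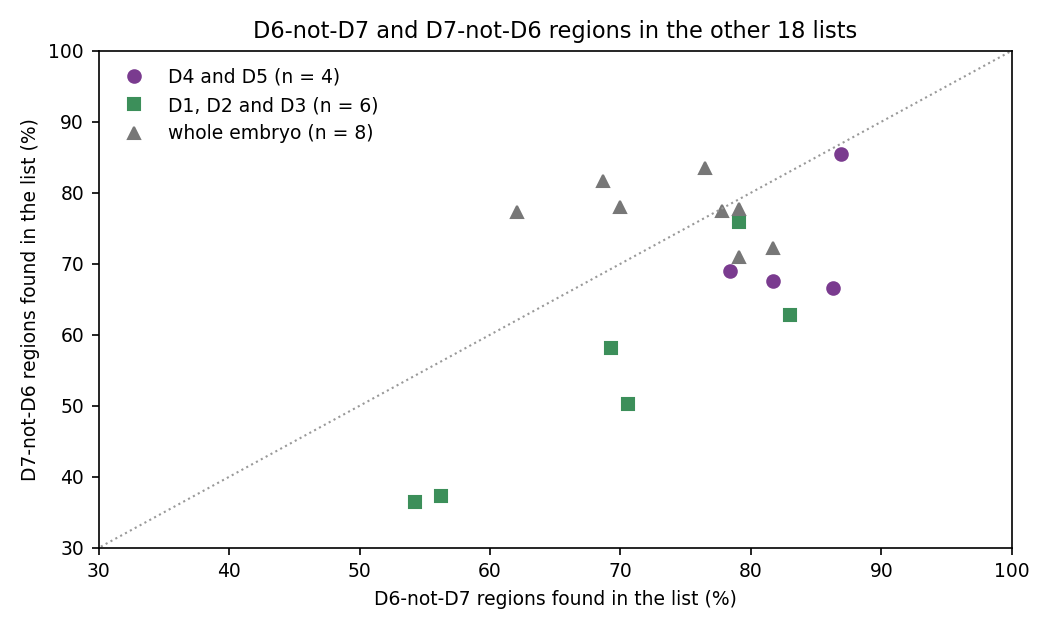
Percentage of the 153 D6-not-D7 regions (x axis) and of the 760 D7-not-D6 regions (y axis) found in each of the other 18 lists, 1 point per list, with a dotted line of equality. Tagged lists lay below the line, from 54.2% of D6 and 36.4% of D7 regions in the lowest anterior list to 86.9% and 85.4% in the highest central list, and whole-embryo lists lay on both sides of it.

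The separated regions were spread unevenly over the chromosomes. The X held 47 of the 153 D6-not-D7 regions (30.7%) and 90 of the 760 D7-not-D6 regions (11.8%), against 18.4% of all merged regions. Put per arm, 1.26% of X regions were D6-not-D7 and 2.41% D7-not-D6, whereas on 2L these values were 0.496% and 3.68%. At equal length the X held 27.5% of the D6 and 10.0% of the D7 set, and in the pair of one name style 25.9% and 14.3%. Over these and the other settings tried, the X share ran from 24.7% to 34.5% for D6 and from 10.0% to 14.8% for D7, and the ranges did not overlap. All settings reuse the same 4 lists, so these ranges show dependence on processing and not the spread between libraries. Chromosome 4, a small and largely heterochromatic chromosome, held 0 D6-not-D7 and 25 D7-not-D6 regions, which is 5.91% of its 423 regions.

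The same tilt appeared in whole lists. Peaks on the X made up 18.8% and 18.7% of the D6 lists, against 17.8% and 17.8% of the D7 lists, and the lists did not overlap. The other tagged lists ranged from 17.7% to 18.8% and the whole-embryo lists from 17.9% to 18.8%, so D6 replicate 1 had the highest share of the 22 lists and the other 3 lists lay within the range of the rest, near its ends. Chromosome 4 had 284 and 271 peaks in the D6 lists, 404 and 305 in the D7 lists, 271 to 420 in the other tagged lists and 378 to 423 in whole embryos. The sex of the embryos is not labelled, and its part in these values was not tested.

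**Figure D2:**
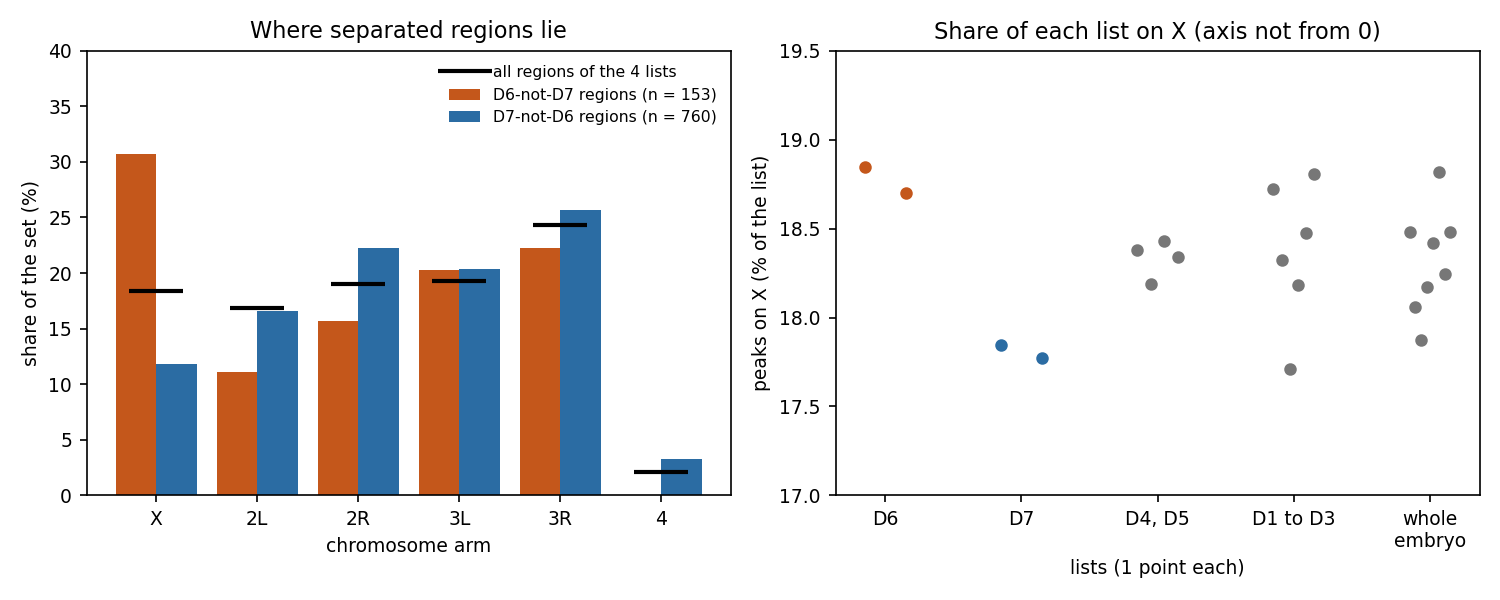
Left, percentage of D6-not-D7 regions (orange) and of D7-not-D6 regions (blue) on each arm, with a black line for all merged regions; on X the bars stand at 30.7% and 11.8% and the line at 18.4%. Right, percentage of each list's peaks that lie on X, 1 point per list, on an axis that does not start at 0; D6 lists lay at 18.8% and 18.7% and D7 lists at 17.8% and 17.8%.

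In one stretch of 3R more regions were found in the D7 lists than in the other 20. Of all windows of 100 kb, the 3 with the largest excess of D7-not-D6 over D6-not-D7 regions were 2L 3000001–3100000, 3R 12700001–12800000 and 2L 21000001–21100000, the last tied with other windows and taken by arm order. The 3R window held 45 regions, of which 7 were D7-not-D6, 0 were D6-not-D7 and 23 were found in all 4 lists. D6 lists held 23 and 26 of the 45 and D7 lists held 41 and 35. The central lists held 23 to 30, the anterior lists 21 to 24 and the whole-embryo lists 24 to 29, with 27 and 26 in those of the D7 strains. Both D7 lists were thus above each of the other 20 lists, while the D6 lists lay within the range of the other 18. The 7 separated regions were chosen by the very difference counted here, so they were then left out. D6 lists then held 23 and 26 of the other 38 and D7 lists 34 and 28, against 21 to 26 in the rest. Leaving them out does not undo the choice of the window for its D7 excess. Its regions were also merged from the D6 and D7 lists alone, here and in the settings below. Of the 45, 19 were found in a D7 list and in no D6 list, and 1 the reverse. The excess over the other lists thus partly follows from how the window and its regions were chosen. With all lists cut to equal length the D6 lists held 23 and 26 of 38 regions and the D7 lists 34 and 32, against 21 to 28 in the rest. With peaks of a −log10 q of at least 5 they held 22 and 24 of 39 in D6 and 38 and 30 in D7, against 21 to 30 in the rest, so D7 replicate 2 was then level with the highest other list.

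**Figure D3:**
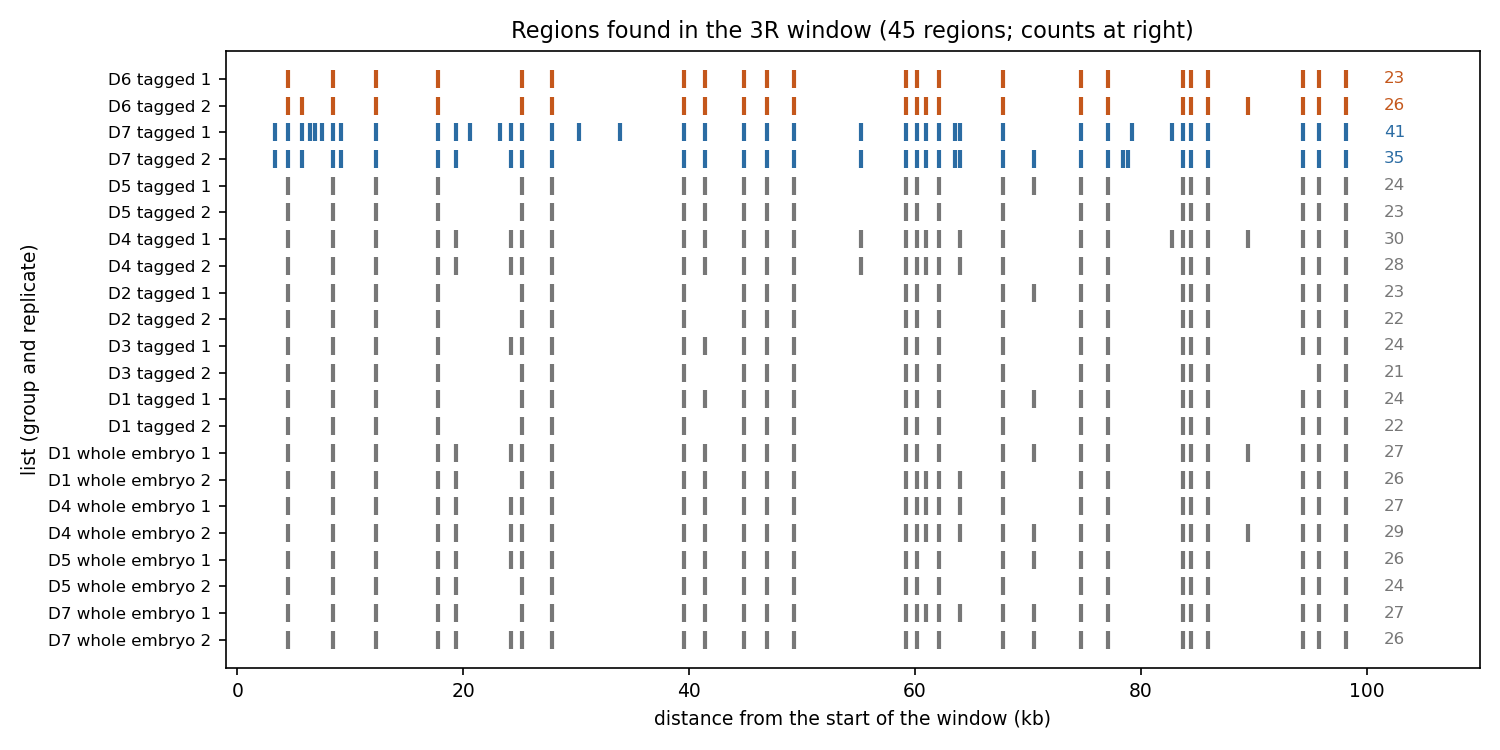
Presence of the 45 regions of the 3R window, merged from the D6 and D7 lists alone, in all 22 lists, against the distance in kb from the start of the window. Each mark is a region found, and the count per list stands at the right. D7 lists (blue) held 41 and 35 regions, D6 lists (orange) 23 and 26, and the remaining lists (grey) 21 to 30.

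Several regions of this window that were open in all 4 lists also ranked higher in D7. Among the 23 common regions, both D7 lists ranked above both D6 lists at 6 by fold and at 13 by width, and the reverse held at 2 by fold and 3 by width. Over all 12776 common regions, both D7 lists ranked above both D6 lists at 12.7% by fold and 13% by width, and the reverse held at 17.4% and 30.2%. These ranks include regions with lettered peaks, which the limma comparison below leaves out. Fold ranks of the 2 D7 lists correlated at 0.679 over all common regions, against 0.920 over the 6585 without lettered peaks. At 3R 12759729–12760672, lettered in D7 replicate 2, the D7 folds were 8.71 and 1.75. At 3R 12741009–12741880 the fold was 1.6 and 2.19 in D6, against 7.46 and 5.54 in D7, and the peaks were 444 and 350 bp wide in D6 and 840 and 831 bp in D7. This region held lettered peaks in D6 replicate 1. At 3R 12716885–12718631 the fold was 4.68 and 4.90 in D6 and 11.2 and 12.8 in D7. At 3R 12727448–12728303 it was 4.06 and 2.98 in D6 and 11.1 and 11.5 in D7. These regions were singled out after their values were seen, and no fold overlapped between the bands at any of them. All 3 were chosen among regions found in all 4 lists, so the bands could differ there in rank only. They were found in all 8 whole-embryo lists. Of the 10 lists of D1 to D5, 6 held 3R 12741009–12741880 and all 10 held the others.

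**Figure D4:**
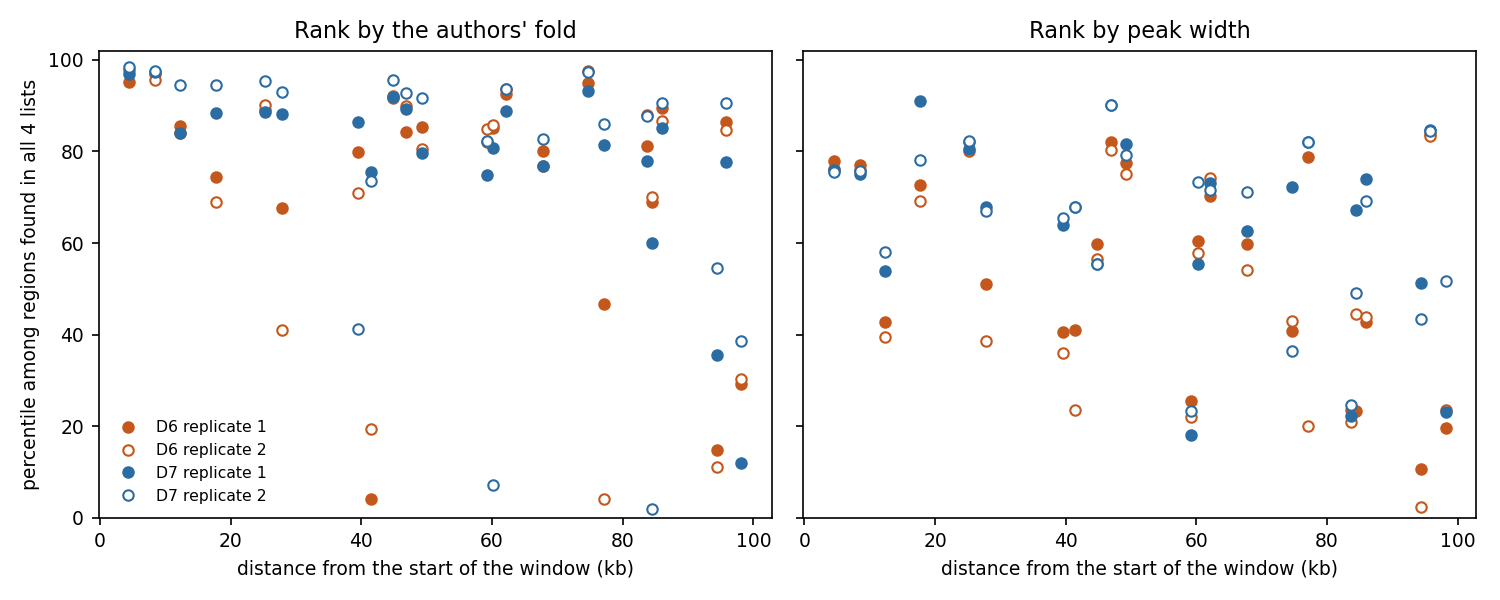
Percentile of the 23 regions of the 3R window that were found in all 4 lists, ranked over the 12776 common regions by the authors' fold (left) and by peak width (right), against the distance in kb from the start of the window. Both D7 lists (blue) lay above both D6 lists (orange) at 6 regions by fold and at 13 by width. Regions with lettered peaks are included.

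Some of the 24 regions found in both D7 lists and in no other tagged list also lay close together. Of the 24, 4 lay on 3R between 12699599 and 12763695, and all 4 were found in 0 whole-embryo lists. This run begins just before the 3R window described above and reaches into it. Another 6 lay on 3L between 5671677 and 5722543 and were found in 0 to 6 whole-embryo lists. The 200 kb around the 3L run, 3L 5600001–5800000, held 84 regions, with 48 and 42 found in the D6 lists and 80 and 60 in the D7 lists. Central lists held 49 to 56 of them, anterior lists 46 to 56 and whole-embryo lists 57 to 62. D7 replicate 1 thus stood above the rest by a wide margin and D7 replicate 2 lay within the whole-embryo range. These 84 regions too were merged from the D6 and D7 lists alone, around a run chosen for D7. Of them, 33 were found in a D7 list and in no D6 list, and 1 the reverse. The margin of D7 replicate 1 thus partly follows from that choice. Among the 38 common regions, both D7 lists ranked above both D6 lists at 15 by fold (39.5%) and 10 by width (26.3%). Over all 12776 common regions these shares were 12.7% and 13%. The reverse held at 3 (7.89%) and 9 (23.7%), against 17.4% and 30.2% over all common regions. Regions with lettered peaks are included, and the D7 lists could differ widely, with folds of 26.6 and 2.32 at 3L 5647290–5648324. The strongest of the 24 outside both runs was 3R 20985267–20985802, with a fold of 4.01 and 2.55 in D7 and found in 2 whole-embryo lists. In all, 10 of the 24 were found in no whole-embryo list.

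The other named windows showed smaller differences in the number of regions found. In 2L 3000001–3100000, D6 lists held 16 and 19 of 28 regions and D7 lists 26 and 24, with 26 to 28 in central, 19 to 26 in anterior and 24 to 28 in whole-embryo lists, so D6 replicate 1 lay below all of these lists and D7 replicate 2 lay below the central ones. In 2L 21000001–21100000, D6 lists held 23 and 22 of 33 and D7 lists 33 and 28, with 18 to 30 in the other 18 lists. The windows with the largest excess of D6-not-D7 regions held 3 such regions each. In 3L 17300001–17400000, D6 lists held 20 and 22 of 25 regions and D7 lists 16 and 14, with 19 to 23 in the other 18 lists, and in X 18500001–18600000 they held 23 and 28 against 20 and 23 of 30, with 24 to 29 in the others. In X 16300001–16400000, D6 lists held 24 and 22 of 26 and D7 lists 18 and 20, all within the 17 to 26 of the other 18 lists. In the 3L window D6 thus lay within the range of the other lists and D7 lay below it. At common regions of X 18500001–18600000, both D6 lists ranked above both D7 lists by width at 11 of 17. This held at 7 of 13 in the 3L window and at 7 of 18 in X 16300001–16400000. The reverse held at 0, 1 and 1. For D6 above D7 these are 64.7%, 53.8% and 38.9%, against 30.2% by width over all 12776 common regions. By fold, both D6 lists ranked above both D7 lists at 7, 4 and 6 regions, and the reverse held at 0, 0 and 1. Over all common regions the shares by fold were 17.4% and 12.7%. In the 2L windows, both D7 lists ranked above both D6 lists by width at 2 of 16 and 5 of 21, and the reverse held at 4 and 4. A tilt in ranks was thus not particular to the 3R window. By width it was clearest in X 18500001–18600000 and 3L 17300001–17400000, which were chosen for their D6 excess.

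Ranks were then compared at regions found in all 4 lists. For 6585 regions with no lettered peak, the authors' fold was ranked within each list and turned into normal scores. The correlation of these scores over regions was 0.891 between the D6 lists, 0.920 between the D7 lists and 0.880 to 0.911 between the domains; regions are not independent replicates. The median absolute difference in percentile was 6.46 within D6, 5.57 within D7 and 5.56 to 7.06 between the domains, so ranks differed between the bands about as much as between D6 replicates. Both D6 lists ranked above both D7 lists at 1133 regions (17.2%) and both D7 above both D6 at 1150 (17.5%). limma with Benjamini-Hochberg adjustment called 0 regions higher in D6 and 0 higher in D7 (both 0% of 6585; smallest adjusted p = 0.51). At an unadjusted p under 0.05, limma gave 430 regions (6.53%), of which 235 ranked higher in D6 and 195 higher in D7.

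The regions with the smallest limma p are given as a description. At X 15573926–15574481 the fold was 3.50 and 4.96 in D6 and 2.56 and 2.19 in D7, which put it at percentiles 63.1 and 71.7 in D6 and 24.4 and 14.9 in D7. At X 13880519–13880906 the fold was 3.19 and 3.32 in D6 and 1.91 and 2.03 in D7, and its width ranked higher in D6 as well. The first D6 region by p, 3L 10637837–10638403, had a fold of 2.21 and 2.37 in D6 against 1.5 and 1.42 in D7, but its width ranked lower in D6. In the other direction, 2R 5291172–5291674 had a fold of 1.84 and 1.85 in D6 and 3.77 and 4.11 in D7. At X 8199558–8200113 the fold was 2.44 and 2.69 in D6 and 5.78 and 5.06 in D7. The region 3R 12794039–12794654, at the end of the 3R window, had a fold of 1.90 and 1.94 in D6 and 3.32 and 3.67 in D7, and its peaks were 257 and 223 bp wide in D6 against 616 and 535 bp in D7. No percentile overlapped between the bands at any of these regions, which follows from choosing them by p. At each of them limma's adjusted p was 0.51 or 0.52.

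**Figure D5:**
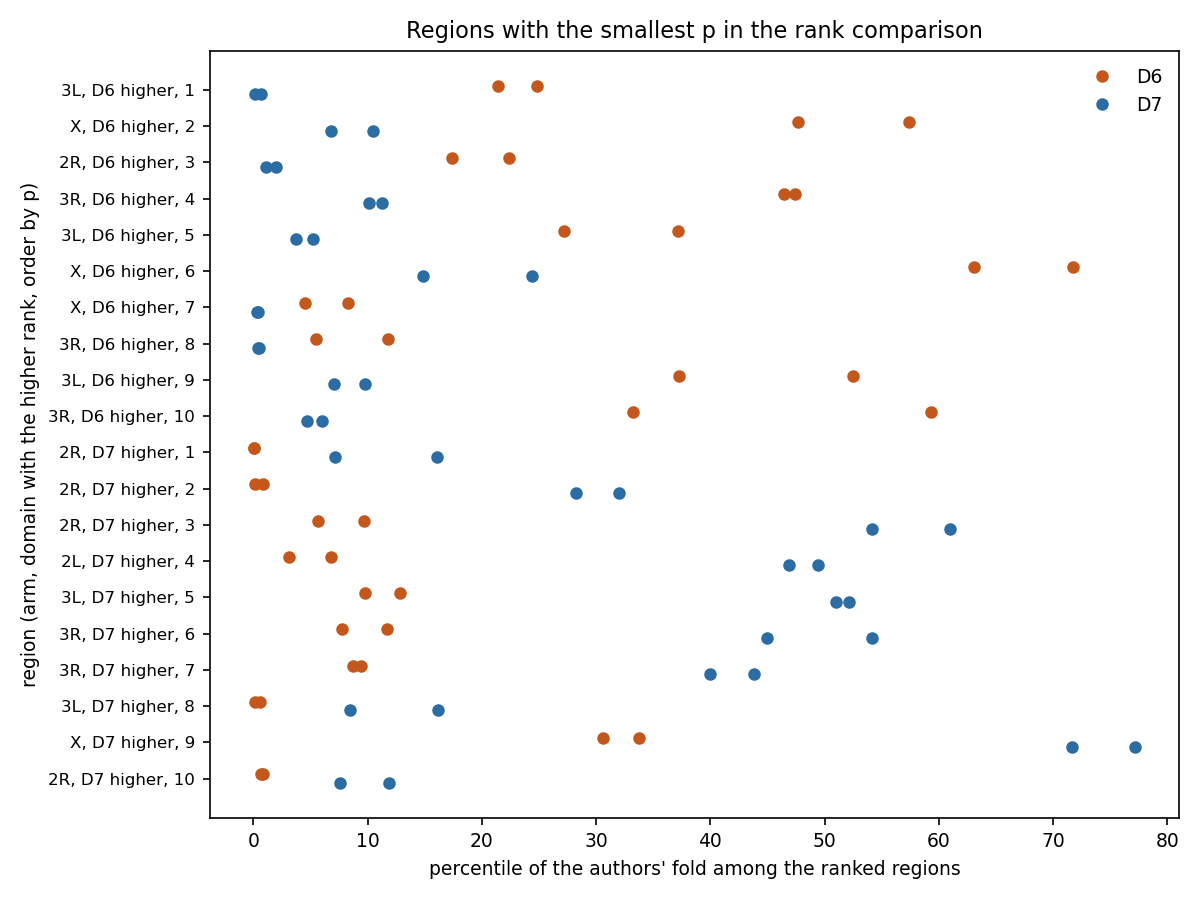
Percentile of the authors' fold among the 6585 ranked regions in the 2 D6 lists (orange) and the 2 D7 lists (blue), for the 10 regions a direction with the smallest limma p, labelled by arm, direction and order. The percentiles did not overlap between the bands at any of the 20 regions, which follows from choosing them by p. No region passed limma's adjusted threshold.

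Ranks showed the same unevenness between chromosomes. The median percentile of X regions was 57.8 and 56.4 in D6 and 55.5 and 54.5 in D7. The difference D6 minus D7 had a median of 0.978 percentile points over the 1226 X regions and of −0.311 over the other 5359. Both D6 lists ranked above both D7 lists at 268 X regions, and both D7 lists above both D6 lists at 142. On chromosome 4 the median percentile was 44.3 and 38 in D6 and 53.0 and 44.9 in D7, and of 141 regions 2 ranked higher in both D6 lists and 35 higher in both D7 lists. In the pair of one name style, over 8224 regions with a correlation of 0.900, the median difference was 1.03 points on X and −0.462 elsewhere. There, 267 regions ranked more than 25 percentile points higher in the D6 list and 232 more than 25 points higher in the D7 list.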

How the data were processed

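The authors deposited 1 list of ATAC-seq peaks per library. The labels' tools are Bowtie2 2.2.9, SAMtools 1.3.1, MACS2 2.1.1.2 and the build dm3, per the submitters' processing notes, with genomic DNA as the reference for peak calling, per the labels. Each deposited peak has a score (about 10 times its −log10 q), a signalValue (the fold over genomic DNA at the summit) and p- and q-values as −log10. Lettered peaks hold several summits. Read depth and numbers of reads are not given in these lists; 2 libraries a domain limit precision, and each D6 and D7 library comes from a strain of its own, so p-values measure the spread between strains and preparations together.

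Peaks on 6 arms were merged where they shared 1 bp. Ranks were tested with limma 3.58.1 (R 4.3.3) at an adjusted p of 0.05, after a check on simulated ranks, and libraries with exact permutation tests (scipy 1.17.1, Python 3.11.15). Values chosen per region are the highest of its peaks.

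Regions named were, per direction, the 10 of highest median rank that held at equal list length, the 10 of smallest limma p, and 3 windows of 100 kb. The compared lists, rules and tests were chosen with earlier results of these data known. Regions are given by position; genes, sequences, motifs and markers of the tagged cells were not analysed here, so the labels were not checked against markers. Alternatives were list length, thresholds of width and −log10 q, overlap, bins, sequences, name style and leaving out libraries.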

Additional observations from a re-analysis of the deposited data

Results flagged for a closer look

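D4 replicate 1 held 649 of the 760 D7-not-D6 regions, whereas the other 3 central lists held 506 to 524, and this gap was large for a group of 4 lists. Of 18 groups checked, 1 stood out in this way, and chance does so in about 1 group in 20. This list had 21284 peaks and the name style of D7 replicate 1; the part of either in its count was not tested.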

How the results depend on the processing

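The counts of separated regions rest on single libraries. Leaving out 1 of the 4 libraries gave 383 to 797 D6-not-D7 regions and 1219 to 2337 D7-not-D6 regions, since 3 lists then decide; the D7 count was above the D6 count each time. The widest 50% of each list gave 87 and 389, bins of 500 bp gave 299 and 1564, and the pair of one name style gave 1253 and 3364. A −log10 q of at least 5 (114 and 766), equal length by width (222 and 578), a 50% overlap (153 and 760), regions merged from 22 lists (140 and 640) and all sequences (156 and 772) stayed within 1.5 times. limma called 0 regions in each of 8 other settings, with a smallest adjusted p of 0.116 (replicate block) to 0.999. No source used here pairs the samples by replicate number. The correlation of −0.013 over 2 same-number pairs cannot show whether libraries were prepared in pairs. The replicate block left the central-against-anterior difference at −2.04 points (exact permutation p = 0.11). That difference ran from −2.78 to −1.39 points over libraries left out, passing the threshold without D1 replicate 1 alone; it was 1.51 points within the name style of D7 replicate 1, −1.71 within that of D7 replicate 2, −3.41 at equal length and −4.08 as a difference of found shares. In the 3R window D7 replicate 2 and the highest other list both held 30 regions at a −log10 q of at least 5. The X share of D7-not-D6 regions was 14.6% at equal length by signalValue and 14.8% without D7 replicate 2, and the X-minus-other rank difference 0.759 points without D7 replicate 2 against 1.29. X shares, one-domain counts, values within name styles, the 3R window under other settings and the wider 3L stretch were added after seeing the data.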
